A study of Mus musculus with 3 samples.

Results

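The genes described here are Cftr and the 9 protein-coding genes beside it on mouse chromosome 6, in the order Tes, Cav2, Cav1, Met, Capza2, St7, Wnt2, Asz1, Cftr and Cttnbp2. They were chosen by position and matched by gene ID, and 9 of them are among the 16621 genes listed in at least 1 library. Asz1 was listed in none. Between Tes and Cttnbp2 the RefSeq annotation of assembly GRCm38.p6 holds 13 other genes, of which 7 are lncRNAs, 5 pseudogenes and 1 an snRNA. None of the 13 is protein coding, and none was listed in any library. Messenger RNA was measured by poly(A) RNA sequencing in tendon derived stem cells (TDSCs), colony-forming progenitors grown out of tail tendon. All cells came from C57BL/6 mice aged 10 weeks, were untreated, and were collected at passage 4 from confluent dishes. The WT group was 1 library of wild-type cells, and the DF508 group was 2 libraries of CFTRΔF508 cells. No label states the zygosity, the origin of the mutant allele, or whether libraries pool animals or share a culture. The spread between samples behind each p-value is that of the DF508 pair, and it may be technical.

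Cftr encodes an anion channel that carries chloride and bicarbonate across the apical membrane of epithelial cells, and the loss of a phenylalanine in its first nucleotide-binding domain keeps most of the protein in the endoplasmic reticulum. Its neighbours have unrelated roles. Tes is a LIM-domain protein of focal adhesions, Cav1 and Cav2 form the coat of caveolae, Met is the receptor for hepatocyte growth factor, and Capza2 is a subunit of the protein that caps actin filaments. Wnt2 is a secreted Wnt ligand, Asz1 a germ cell protein needed to make piRNAs, and Cttnbp2 a cortactin-binding protein known from neurons. St7 was described as a candidate tumour suppressor.

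The site of the mutation lies in exon 11 of the 27 exons of the Cftr transcript, in a coding sequence of 4428 bases. It is shown because it is the difference that the labels name between the groups. The reference sequence around it, from the GENCODE transcript matched to the RefSeq transcript that the tables name, runs as follows (GRCm38 chr6:18235255-18235317, plus strand, with the codon of the phenylalanine named in ΔF508 in capitals). The tables hold counts per gene and not reads, so they do not show which allele was transcribed. No label states which bases the mutant allele lacks. The words "deleted codon" below therefore mean the reference codon of the lost phenylalanine, not the exact bases removed.
Cftr, deleted codon in capitals: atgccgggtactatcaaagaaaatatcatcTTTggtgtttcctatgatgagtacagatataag

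The stretch upstream of the transcription start is shown for 4 of the genes: the 2 tested members with the lowest fitted change (Cftr and Cttnbp2), the one that passed the test below (Met) and the one with the highest level (Cav1, at the first of its 2 annotated starts). Each runs 250 bases up to the start, from RefSeq on GRCm38.p6, with every CG dinucleotide in capitals. Cftr is chr6:18170437-18170686 on the plus strand, Cttnbp2 chr6:18514870-18515119 on the minus strand, Met chr6:17463707-17463956 on the plus strand and Cav1 chr6:17306085-17306334 on the plus strand.
Cftr: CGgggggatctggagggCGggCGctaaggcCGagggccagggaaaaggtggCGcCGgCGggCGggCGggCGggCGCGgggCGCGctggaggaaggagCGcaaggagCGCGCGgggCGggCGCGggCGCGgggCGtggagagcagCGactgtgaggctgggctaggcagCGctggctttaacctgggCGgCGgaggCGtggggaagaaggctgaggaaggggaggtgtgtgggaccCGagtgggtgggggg
Cttnbp2: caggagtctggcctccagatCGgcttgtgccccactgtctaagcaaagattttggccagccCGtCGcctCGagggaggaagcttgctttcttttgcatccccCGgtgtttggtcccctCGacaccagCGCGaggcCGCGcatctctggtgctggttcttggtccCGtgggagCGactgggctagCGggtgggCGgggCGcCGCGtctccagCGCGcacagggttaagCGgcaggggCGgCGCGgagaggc
Met: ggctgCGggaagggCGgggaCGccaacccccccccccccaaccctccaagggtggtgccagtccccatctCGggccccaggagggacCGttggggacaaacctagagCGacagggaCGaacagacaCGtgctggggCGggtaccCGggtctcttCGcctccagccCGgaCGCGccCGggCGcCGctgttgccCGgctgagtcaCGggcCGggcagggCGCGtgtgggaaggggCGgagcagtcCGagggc
Cav1: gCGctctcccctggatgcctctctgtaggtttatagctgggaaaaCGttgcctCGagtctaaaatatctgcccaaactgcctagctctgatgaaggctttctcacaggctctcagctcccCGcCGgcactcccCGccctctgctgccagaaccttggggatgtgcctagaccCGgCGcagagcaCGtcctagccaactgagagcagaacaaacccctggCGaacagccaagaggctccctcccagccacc

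The Cftr window held 30 CG dinucleotides, with an observed over expected ratio of 1.06, above 96.8% of 32851 RefSeq windows of the same length. Cttnbp2 held 23 with a ratio of 0.831 and Met 24 with 0.704, against a median of 6 and a ratio of 0.374 over all windows. Cav1 held 10 CG dinucleotides at the first start, with a ratio of 0.471. The silent Asz1 held 15, with a ratio of 0.901, so the genes at or near 0 counts were not those with the fewest CG dinucleotides. Of 3 motifs searched on both strands, GGGCGG matched 6 times upstream of Cftr, 3 times upstream of Met and 2 times each upstream of Cttnbp2 and Tes. It matched 1 time each upstream of Cav2, Wnt2, Asz1 and the first start of Cav1, and 32.7% of all windows held it. TATAAA was matched upstream of Cav1 and of the first of 3 starts of St7, and is in 12.4% of all windows. CCAAT was matched upstream of Tes, Cav2 and Wnt2, and is in 33.8%. In the annotation 7 of the 10 genes lie on the plus strand, and Wnt2, Asz1 and Cttnbp2 on the minus strand, so Cftr and Cttnbp2 are transcribed towards each other. No member overlaps another protein-coding gene. Tes, Met, St7, Cftr and Cttnbp2 overlap a lncRNA or pseudogene, and since no source used here says whether counting used the strand, reads of overlapping genes cannot be told apart. Every listed member had expected counts that were whole within 0.005 in every library, so none was taken to share reads with another gene.

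The libraries held 5298326 (WT), 5241826 (DF508 replicate 1) and 5246886 (DF508 replicate 2) estimated counts. Levels are given as CPM, the count scaled to the library total, or, to compare genes, as FPKM, which is also scaled to gene length. The 14 tendon and fibroblast markers were all detected in every library. Of 12 epithelial markers 9 or 10 were at 0 counts in each library, Cdh1, Krt18 and Krt14 among them, and their summed level was 1.14 to 1.72 CPM. The 10 myeloid markers summed to 85.9 CPM in WT, 133 CPM in DF508 replicate 1 and 606 CPM in DF508 replicate 2. Their sum was thus above WT in both DF508 libraries and stood highest in 1 library. It differed more between the DF508 libraries than between WT and DF508 replicate 1. The part of these markers in the results below was not tested. The WT library had no replicate, so it adds nothing to the spread, which the fit takes from the DF508 pair and from a prior set over all genes.

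Cftr itself had 15 counts in WT, 1 in DF508 replicate 1 and 1 in DF508 replicate 2, which is 2.83, 0.191 and 0.191 CPM. The WT library stood alone, and both mutant libraries were under 3 counts, the upper limit that a count of 0 allows. On the FPKM scale the level was 0.45 in WT, higher than 14.6% of the genes listed there, and 0.03 in each DF508 library. Replicate 1 had 0.0674 times the WT level, with an exact 95% interval of 0.0016 to 0.438. Such intervals hold counting error alone and compare libraries, not genotypes. Replicate 2 had 0.0673 times the WT level (0.0016 to 0.438). The fitted log2 fold change was -3.78 ± 1.1 (SE), the lowest of the 12888 genes tested, but its Benjamini-Hochberg adjusted p of 0.185 from edgeR's quasi-likelihood test was above the threshold of 0.05. Cftr passed the filter on low counts through the WT library alone. At its level in DF508 it could enter the test only by being higher in WT. In bulk RNA, fewer cells that express a gene and less RNA per cell cannot be told apart. Of 1077 genes with 10 to 20 counts in WT, 2 had at most 1 count in each DF508 library: Cftr, and the predicted gene Gm12191, with 11 counts in WT and 0 in both DF508 libraries, whose estimate shares reads with another gene and is uncertain. Likeness is over 3 libraries and is a description.

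Cttnbp2, the next gene after Cftr, had 37 counts in WT, 4 in DF508 replicate 1 and 10 in replicate 2, or 6.98, 0.763 and 1.91 CPM. Here too WT was the high library, with both DF508 libraries below it, as was so for 29.6% of all genes tested. The ratio to WT was 0.109 in replicate 1 (exact 95% interval 0.0283 to 0.304) and 0.273 in replicate 2 (0.121 to 0.56). The DF508 libraries did not differ from each other beyond counting error, with a ratio of replicate 2 to replicate 1 of 2.5 (0.72 to 10.9). The fitted log2 fold change was -2.41 ± 0.62 (SE) with an adjusted p of 0.133 by the same edgeR test, which is not a call. It was -3.2 without DF508 replicate 2 and -1.91 without replicate 1.

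Cftr and Cttnbp2 were the 2 members whose CPM was lower by 3-fold or more in each DF508 library. Among all 12888 genes tested 14 met that rule, which is 0.109%, and the 2 were the only ones of the 14 on chromosome 6. The others included the collagenase Mmp13, the one of the 14 past the test's threshold, and Piwil2, described below. The rule was set after the values were seen, and 5 of the 14 share reads with another gene and are uncertain. Cftr, at its level in DF508, could be tested only by being high in WT, and then it met the rule. The bounds of the exact intervals leave room for a ratio to WT of up to 0.438 for Cftr and up to 0.56 for Cttnbp2.

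**Figure D1:**
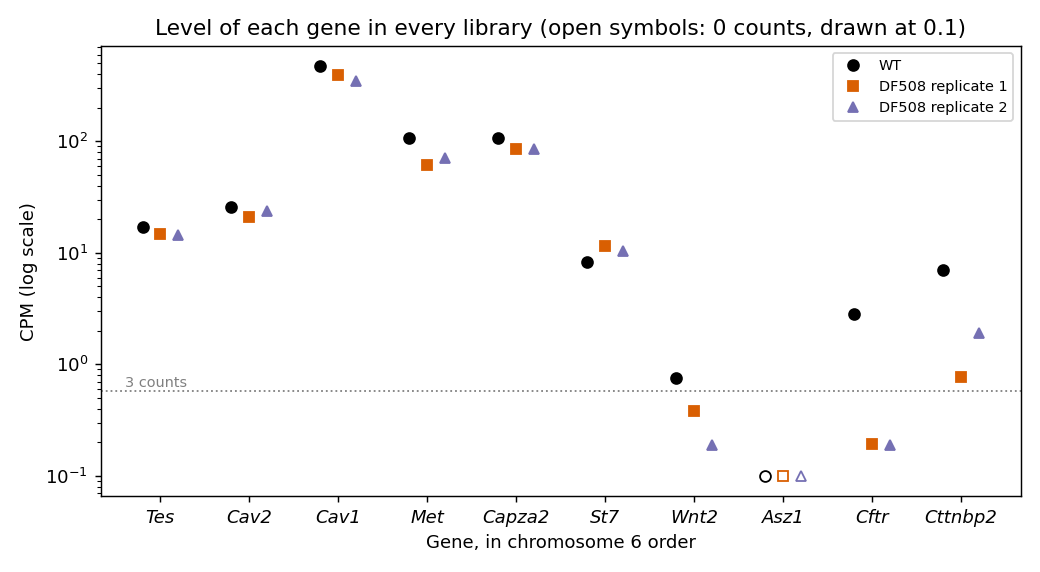
CPM on a log axis for each of the 10 genes, in chromosome order, with 1 symbol per library. Open symbols at 0.1 mark 0 counts (Asz1), and the dotted line marks 3 counts. The WT symbol lies well above both DF508 symbols for Cftr (2.83 against 0.191 and 0.191 CPM) and Cttnbp2 (6.98 against 0.763 and 1.91 CPM). For Wnt2 all symbols lie near or under the dotted line, from 0.755 to 0.191 CPM.

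Met was the member that passed the test. It had 564 counts in WT, 321 in DF508 replicate 1 and 368 in replicate 2, or 106, 61.2 and 70.1 CPM. Both mutant libraries were lower than WT, and they did not differ from each other beyond counting error (ratio 1.15, exact 95% interval 0.983 to 1.33). The ratio to WT was 0.575 in replicate 1 (0.5 to 0.661) and 0.659 in replicate 2 (0.576 to 0.753). Met fell by 0.74 ± 0.12 (SE) on the log2 scale, which is 1.67-fold lower (edgeR quasi-likelihood test, adjusted p = 0.0269). Of all genes tested 0.9% fell by this test. Met passed under 4 of 10 alternatives and was not called under the other 6. Among these, DESeq2's Wald test gave an adjusted p of 0.142, edgeR with library totals alone (the scaling of the CPM ratios) 0.456, edgeR without a filter on low counts 0.662, and limma on log2 FPKM 0.499 to 0.509. Myeloid markers summed to 133 CPM in replicate 1 and 606 CPM in replicate 2, and their part in the ratio of Met was not tested.

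Met's partners gave no call. Of 20 ligands, activators and adaptors, 14 were tested and none was called, against 1.39% called over all genes. Of the 14, 1 had an unadjusted p under 0.05, beside 11.9% of all genes. Their median log2 fold change was -0.03, beside 0.01 over all genes tested. The adaptor Shc1, which shares reads and is uncertain, had 89.6, 88.9 and 90 FPKM in WT and DF508 replicates 1 and 2. Stat3, a transcription factor that Met activates, had 66.6, 59.4 and 56.2 FPKM. Hgf, the ligand of Met, was looked at for its role after its values were seen. It had 62 counts in WT, 67 in DF508 replicate 1 and 31 in replicate 2, so the mutant libraries lay on both sides of WT (log2 fold change -0.37 ± 0.41 SE, edgeR quasi-likelihood test, adjusted p = 0.801).

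The caveolins lie side by side and differed in level. Cav1 was the most abundant member, with 182 FPKM in WT, 154 in DF508 replicate 1 and 135.5 in replicate 2, above 97.3% to 98% of the genes in each library. Both DF508 libraries were lower than WT, and replicate 2 was lower than replicate 1 beyond counting error (ratio 0.883, exact 95% interval 0.828 to 0.94). The ratio of scaled counts to WT was 0.843 (0.795 to 0.894) and 0.744 (0.7 to 0.79). With the spread of the DF508 pair taken in, the log2 fold change was -0.38 ± 0.11 (SE) and did not pass (edgeR quasi-likelihood test, adjusted p = 0.178). Cav2, which needs Cav1 to reach the cell surface, had 10.5, 8.41 and 9.56 FPKM in WT and DF508 replicates 1 and 2. Its ratios of 0.804 (0.62 to 1.04) and 0.914 (0.711 to 1.17) have intervals that hold 1, and its log2 fold change was -0.26 ± 0.2 (SE, adjusted p = 0.675).

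Among 10 proteins of the caveola coat and neck, 9 were tested and none was called, beside 1.39% of all genes. Of the 9, 4 had an unadjusted p under 0.05, beside 11.9% of all genes tested. None of the 9 was below WT in both DF508 libraries and 7 were above it in both, beside 29.6% and 43.5% of all genes. Their median log2 fold change was 0.22, beside 0.01 over all genes. The coat protein Cavin1 had 226, 279 and 265 FPKM in WT and DF508 replicates 1 and 2. Cavin3 had 110, 131 and 142 FPKM. Cavin4 and Pacsin2, of which Pacsin2 shares reads and is uncertain, had 1 DF508 library on each side of WT. Cav1 and Cav2 were below WT in both DF508 libraries where these 7 partners were above it, with none of them past the threshold, and the difference between the 2 groups of genes was not tested.

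**Figure D2:**
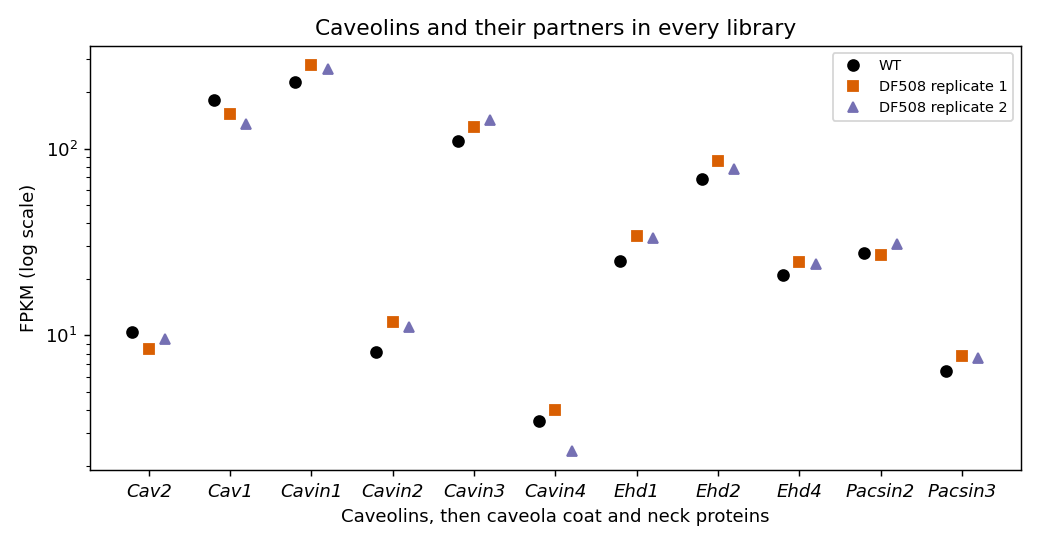
FPKM on a log axis for Cav2, Cav1 and the 9 tested caveola coat and neck proteins, with 1 symbol per library. For Cav1 and Cav2 the WT symbol is the highest (182 and 10.5 FPKM), and for Cavin1 and Cavin3 it is the lowest (226 and 110 FPKM).

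Capza2, which with a beta subunit caps the fast-growing end of actin filaments, had 571 counts in WT, 444 in DF508 replicate 1 and 444 in replicate 2, or 53.7, 42.2 and 42.2 FPKM. The DF508 libraries were alike and both lower than WT, with ratios of 0.786 (exact 95% interval 0.693 to 0.891) and 0.785 (0.692 to 0.89). The log2 fold change of -0.39 ± 0.11 (SE) was not called (edgeR quasi-likelihood test, adjusted p = 0.157). Its paralogue Capza1, singled out for that relation, had 47.7, 48.9 and 48.2 FPKM. Of 14 genes of the capping protein and its regulators, 12 were tested and none was called, beside 1.39% of all genes. Of the 12, 3 had an unadjusted p under 0.05, beside 11.9% of all genes. Their median log2 fold change was 0.03. The beta subunit Capzb had 193, 199 and 208 FPKM, and the capping inhibitor Mtpn, which shares reads and is uncertain, 85.5, 85.1 and 89.6 FPKM.

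Tes and St7 gave no difference beyond counting error. Tes had 90, 77 and 76 counts in WT and DF508 replicates 1 and 2, with ratios to WT of 0.865 (exact 95% interval 0.63 to 1.19) and 0.853 (0.62 to 1.17). St7 was the one member above WT in both DF508 libraries, with 44, 60 and 55 counts. Its ratios were 1.38 (0.919 to 2.08) and 1.26 (0.834 to 1.92), and its log2 fold change was 0.36 ± 0.29 (SE, edgeR quasi-likelihood test, adjusted p = 0.699). The mean length that RSEM gave St7 over its 2 listed transcripts was 2191 bases in WT, 2212 in DF508 replicate 1 and 2231 in replicate 2, so the estimated transcript mix was not the same, at counts of 60 or less. Of 16 zyxin family and focal adhesion genes, partners of Tes, all were tested and none was called, beside 1.39% of all genes. Of the 16, 6 had an unadjusted p under 0.05, beside 11.9% of all genes, and 11 were above WT in both DF508 libraries, beside 43.5% of all genes. Their median log2 fold change was 0.13. The LIM protein Zyx had 278, 302 and 245 FPKM and the actin linker Vcl 139, 193 and 190 FPKM (log2 fold change 0.42 ± 0.09 SE, edgeR adjusted p = 0.0686). Vcl passed with limma-voom (adjusted p = 0.0479).

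Wnt2 and Asz1 were at the limit of detection. Wnt2 had 4 counts in WT, 2 in DF508 replicate 1 and 1 in replicate 2, too few for the filter. Its ratios to WT of 0.505 (exact 95% interval 0.0457 to 3.53) and 0.252 (0.00513 to 2.55) have wide intervals that hold 1. Whether Wnt2 differed cannot be told at this depth. Asz1 had 0 counts in every library, which allows up to 0.566 to 0.572 CPM. Of 16 genes of Wnt secretion and reception 14 were tested and none was called, beside 1.39% of all genes. Among the 14, 1 had an unadjusted p under 0.05, beside 11.9% of all genes. The Wnt carrier Wls had 74.4, 69.5 and 70.3 FPKM, and the receptor Fzd1, which shares reads and is uncertain, 61.8, 66.8 and 63.3 FPKM.

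Of 14 piRNA pathway genes, partners of Asz1, 5 were tested and none was called, beside 1.39% of all genes. Among the 5, 1 had an unadjusted p under 0.05, beside 11.9% of all genes. The germ cell helicase Ddx4 had 40.6, 65.3 and 46.4 FPKM and Tdrd7 10, 9.78 and 8.75 FPKM. The gene with the low unadjusted p was Piwil2, an Argonaute protein that binds piRNAs, named after its values were seen. It had 54 counts in WT, 13 in DF508 replicate 1 and 15 in replicate 2, a log2 fold change of -1.97 ± 0.41 (SE, edgeR quasi-likelihood test, adjusted p = 0.0633).

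The partners of Cttnbp2 and Cftr gave no call either. Of 17 cortactin and STRIPAK genes, which encode proteins that bind Cttnbp2 or its relatives, 15 were tested, none was called and none had an unadjusted p under 0.05. Their median log2 fold change was -0.06. The phosphatase subunits Ppp2ca and Ppp2r1a had 85.6, 81.5 and 86 FPKM and 83.4, 77.2 and 76.7 FPKM. The paralogue Cttnbp2nl, singled out for that relation, had 345, 330 and 317 counts. Of 25 genes of CFTR trafficking, scaffolding and quality control, all were tested and none was called, 2 with an unadjusted p under 0.05, with a median log2 fold change of -0.08. The chaperones Hspa8 and Hsp90aa1 had 1140, 998 and 1085 FPKM and 184, 194 and 194 FPKM. Over all 8 partner lists 110 of 132 genes were tested and none was called by edgeR's quasi-likelihood test, beside 1.39% of all genes tested. At that share, no call among 110 genes does not set the partners apart from other genes. Of the 110, 18 had an unadjusted p under 0.05, beside 11.9% of all genes, and limma-voom called 1.

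Set side by side, 8 of the 10 members were below WT in both DF508 libraries on CPM, 1 was above it in both, and Asz1 was at 0. Wnt2, at 4 counts or fewer and not tested, is among those below. Of the 8 tested members 7 were below WT in both, beside 29.6% of all genes tested. The share above WT in both was 1 of the 8, beside 43.5%. On TMM-scaled counts 36.2% of all genes were below WT in both, with 7 of the 8 tested members among them. The exact interval of the ratio lay below 1 in both DF508 libraries for Cav1, Met, Capza2, Cftr and Cttnbp2, which is 5 of the 8 tested members beside 5.8% of all genes. These 5 also had an unadjusted p under 0.05, beside 11.9% of all genes. The counts describe these 3 libraries, since 1 WT library is common to every ratio, and Cftr entered only through that library. Among the 8, 1 was called (Met) and 7 were not, beside 1.39% called over all genes tested.

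**Figure D3:**
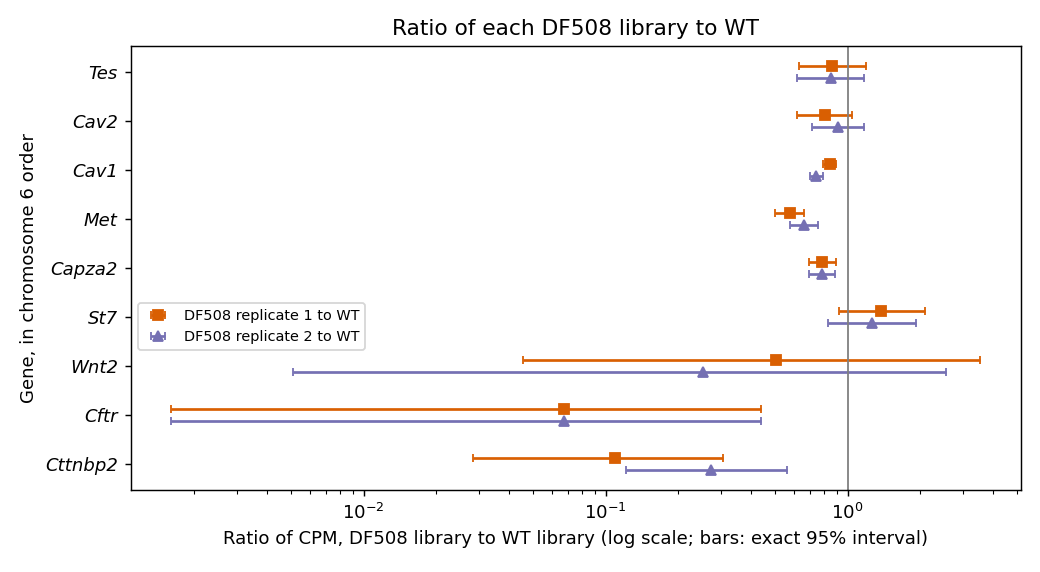
Ratio of CPM in each DF508 library to the WT library on a log axis, for the 9 members with counts, with exact 95% intervals that cover counting error only. Both intervals lie left of 1 for Cav1, Met, Capza2, Cftr and Cttnbp2, and the widest are those of Wnt2 and Cftr, with 1 to 15 counts.

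**Figure D4:**
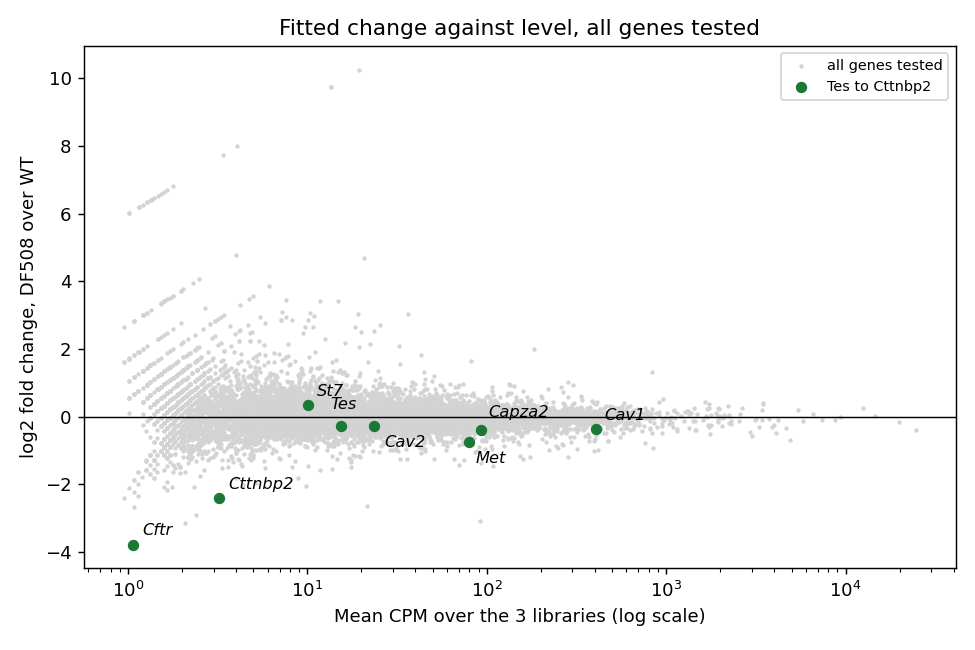
Fitted log2 fold change against mean CPM (log axis) for all 12888 genes tested in grey and the 8 tested members in green. Cftr, at -3.78, is the lowest point, Cttnbp2 lies at -2.41 and the other 6 lie between -0.74 and 0.36.

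The order of the levels per length was the same in every library for the 6 most abundant members, Cav1, Capza2, Met, Cav2, Tes and St7. Met and Cav2 were close in DF508, with 9.13 and 10.5 FPKM for Met and 8.41 and 9.56 FPKM for Cav2, and these ranges overlap. They were apart in WT, at 15.9 and 10.5 FPKM. Tes and St7 did not overlap, with 5.93 to 6.96 and 3.8 to 5.19 FPKM over the 3 libraries. Below them Cttnbp2 (1.17 FPKM), Cftr (0.45) and Wnt2 (0.36) followed in WT. In DF508 replicate 1 Wnt2 stood above Cttnbp2, with 2 and 4 counts and shorter transcripts, so the order of these 3 cannot be set at this depth.

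The 20 nearest tested genes on each side, chosen by position alone, were read from the same fit. Before Tes none of 20 was called, 1 had an unadjusted p under 0.05, and the median log2 fold change was -0.09. After Cttnbp2 1 of 20 was called, 4 had an unadjusted p under 0.05, and the median was -0.07. Over all genes tested 1.39% were called and 11.9% had an unadjusted p under 0.05. Of the 40, 16 were below WT in both DF508 libraries and 13 above, beside 29.6% and 43.5% of all genes tested. The one called was the Wnt ligand Wnt16, with 81.5 CPM in WT and 36.6 and 34.1 CPM in DF508 replicates 1 and 2 (log2 fold change -1.25 ± 0.12 SE, edgeR adjusted p = 0.00587), the fifth tested gene after Cttnbp2. The call was lost under 6 of 10 alternatives, which called none of the 40: library totals alone, no filter on low counts, DESeq2's Wald test and 3 limma fits on log2 FPKM. The nearest tested gene before Tes, the transcriptional regulator Mdfic, had 52.8, 49 and 55.5 CPM, so the mutant libraries lay on both sides of WT. The nearest after Cttnbp2, the RNA-binding protein gene Lsm8, had 4.15, 4.58 and 5.53 CPM, with both mutant libraries above WT (log2 fold change 0.24 ± 0.46 SE, adjusted p = 0.898). No flanking gene had a fitted change as low as that of Cftr or Cttnbp2.

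**Figure D5:**
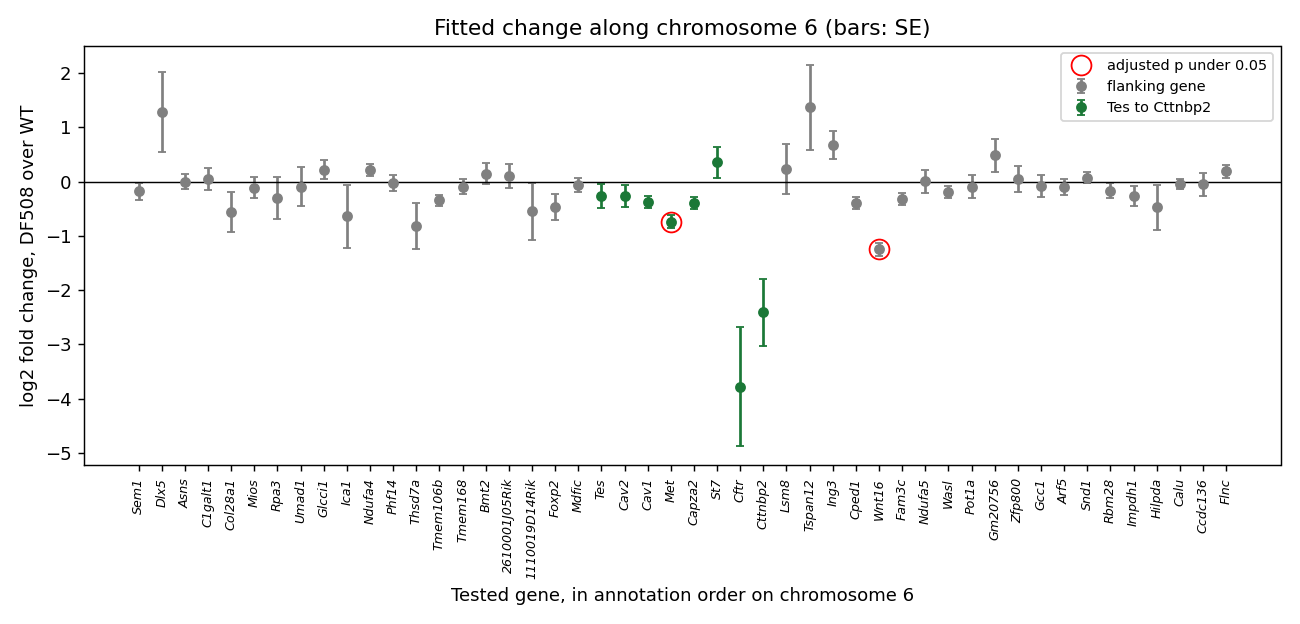
Fitted log2 fold change with SE for the 8 tested members (green) and 20 tested genes on each side (grey), in annotation order on chromosome 6. Red circles mark Met (-0.74) and Wnt16 (-1.25), which passed the threshold, and the lowest points are the neighbours Cftr (-3.78) and Cttnbp2 (-2.41).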

How the data were processed

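Poly(A) RNA of 3 libraries was sequenced, and Bowtie, RSEM and the mm9 build are named, without versions, per the submitters' processing notes. Per the file headers, the deposited tables give for each gene the expected count (RSEM's estimate, not normalized), the FPKM, scaled by the authors to gene length and library size, and the length RSEM used. A gene missing from a table was set to 0.

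Of the expected counts 79.4% to 79.8% were whole within 0.005, and all were rounded to whole numbers. A gene whose count was not whole in any one of the libraries was taken to share reads with another gene. The alignments themselves were not seen. CPM is the rounded count over the library total. DF508 was compared with WT with edgeR (quasi-likelihood test, TMM factors) on the counts that passed filterByExpr (at least 1.91 CPM in any library and 15 counts in all), with genotype as the sole term, 1 residual and 7.7 prior degrees of freedom, Benjamini-Hochberg adjustment over 12888 genes and a threshold of 0.05. The standard error is the log2 fold change over the square root of F. Ratios of single libraries carry exact (Clopper-Pearson) intervals, which cover counting error only and compare libraries, not genotypes. No molecular identifiers are described. Names, order and promoter windows came from RefSeq, GRCm38.p6, and the Cftr coding stretch from GENCODE M21; mm9 coordinates were not converted.

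The members, partner lists and tests were chosen with earlier results of these data known. Of each partner list the genes called, or else the 2 with the highest FPKM, are named, and any others are said to be chosen after their values were seen or for their role. Chance tests over lists were not made. The test was first tested on simulated data, with changes placed only in genes above a minimum level. It recovered 51% of 2-fold and 88% of 4-fold changes there, so a gene not called may still have changed. Alternatives were other scalings, filters, DESeq2, limma-voom and limma on log2 FPKM with a pseudocount of 1 or 0.1, and each DF508 library left out. Tools were edgeR 4.0.16, DESeq2 1.42.0 and limma 3.58.1, run in R 4.3.3.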

Additional observations from a re-analysis of the deposited data

How the results depend on the processing

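All 8 tested members kept the sign of their log2 fold change under every alternative that gave a value. Met was called under 4 of 10 alternatives with an adjusted p, which ran from 0.0217 to 0.662. Its log2 fold change was -0.84 without DF508 replicate 2 and -0.65 without replicate 1. No other member was called under any alternative. Cftr ran from -3.94 to -0.49 and Cttnbp2 from -3.2 to -0.83, the highest of each on log2(FPKM + 1), which understates changes of low genes; a mean of at least 50 counts or 1 FPKM leaves both out. All ratios of single libraries stayed within their exact intervals with TMM library sizes and with FPKM.

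The number of genes called was 179. It was 63 with DESeq2's Wald test and 0 with library totals alone, with no filter on low counts, with limma on log2(FPKM + 1) with or without a filter, and with limma on log2(FPKM + 0.1) with a filter. At an unadjusted p under 0.05 these had 409, 1253, 1123 and 1145 to 1615 genes. Members called went from 1 to 0 and flanking genes called from 1 to 0 under the same 6 settings. Among partner genes limma-voom called 1 and every other setting 0. The cause was not tested. No paired analysis was possible because the WT library carries no replicate number and has no counterpart to the second DF508 library. Leaving out a DF508 library leaves no residual degree of freedom, so it gave values with no test, and the WT library could not be left out.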

Other observations

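Germ cell genes were not uniformly silent in these tendon cells. The germ cell helicase Ddx4 had 597 counts in WT, 949 in DF508 replicate 1 and 676 in replicate 2, or 113, 181 and 129 CPM, although Asz1, which acts in the same pathway, had 0 counts in every library. Of 7 germ cell markers, Sycp1 and Stra8 were at 0 in every library and Dazl had at most 1 count, so Ddx4 carried nearly all of the summed level of 118, 186 and 133 CPM. Ddx4 did not pass the test (log2 fold change 0.42 ± 0.18 SE, edgeR adjusted p = 0.419). Its expected counts were whole in every library, so it was taken to share no reads with another gene.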
